A study of Homo sapiens with 21 samples.

Results

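Collagen genes encode the triple-helical proteins of the extracellular matrix. All 44 protein-coding genes whose symbol is COL, a number, A and a number were taken from the RefSeq gene table, out of 19974 protein-coding genes on the autosomes and the X chromosome. Every called region whose midpoint lay in the gene body or within 50 kb of it was assigned to the gene, in each of 15 lists of called regions. The windows of neighbouring members overlap, so that the 44 genes form 37 separate loci covering 10.8 Mb. Collagen genes are long: the median gene body was 145 kb, against 24.2 kb over all protein-coding genes, and the range ran from 16.8 to 494 kb. A window around a collagen gene therefore has more room for a region than the window of most genes, and the main counts of collagen genes are given beside the share of all genes that passed the same rule.

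The lists came from 4 human melanoma lines labelled as skin: A375, 501mel, SKMEL-147 and SKMEL-5. Each line had 1 list of open chromatin (ATAC) and 1 of acetylated histone H3 lysine 27 (K27ac, found at promoters and enhancers in use), those of A375 being named A375-GFP, and the insulator protein CTCF was profiled in 501mel and SKMEL-5. A375-HOXD13-HA cells gave a list for HOXD13, a homeobox factor that patterns limbs and genitalia, carried with an HA tag, and A375 gave K27ac lists with a control hairpin (shNTC, 2 libraries) and with the hairpins shH2 and shH3 (1 library each), from a design that silenced or overexpressed HOXD13. The labels do not name the hairpins' targets. Regions of the ATAC file for 501mel are named with siNTC, a term absent from the labels, and whether those cells were treated is not known here. Cells were kept for 72 h with or without doxycycline at 1 µg/ml, and the labels do not say which libraries received it, nor which of the protein and mark libraries were made by ChIP-seq and which by CUT&Tag. Every HOXD13-HA and hairpin list came from A375. The HA library of A375-GFP cells and the IgG libraries gave none of the lists used and were not analysed here. The HOXD13-HA regions were therefore not set against an HA background.

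Each collagen has a triple-helical stretch built of repeats that begin with glycine, and chains assemble in sets of matching or different gene products. Fibrillar collagens, led by types I, III and V, form the banded fibres of dermis, tendon and bone. Type IV chains build the sheet-like network of basement membranes, on which epidermis and blood vessels rest, type VI forms beaded filaments around cells, type VII forms the anchoring fibrils below the epidermis, and the fibril-associated types (FACIT, such as IX, XII and XIV) decorate fibre surfaces. Types XV and XVIII are multiplexins, and the C-terminal fragment of type XVIII is endostatin, an inhibitor of angiogenesis. The 6 type IV genes lie in 3 head-to-head pairs, COL4A1 with COL4A2, COL4A3 with COL4A4 and COL4A5 with COL4A6, each pair transcribed outward from a shared promoter stretch.

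The lists held 29176 to 163102 regions on these chromosomes, and they differed in length between lines: 56333 to 163102 for ATAC and 42115 to 139985 for K27ac of the 4 lines. The read depth is unknown, the fold and −log10 q of a region are the authors' own values, and ranks are given only within a list. All groups but shNTC hold 1 library, so differences between lists have no replicate check and no test was run; 2 libraries against 2 could reach no exact permutation p below 0.333. These are bulk profiles, in which fewer cells with a region and a weaker signal in each cell cannot be told apart. The lines' states were checked on 7 melanocytic markers, of which 6 had K27ac at a gene end in 501mel, 7 in SKMEL-5, 1 in SKMEL-147 and 3 in A375-GFP, where the shares of all genes were 24.0%, 46.5%, 21.9% and 55.0%. Of 6 markers of undifferentiated melanoma, 1, 3, 5 and 4 had it in the same order. None of 4 endothelial markers had K27ac at an end in 501mel, SKMEL-5 or SKMEL-147 and 1 had it in A375-GFP, and fibroblast markers had it for 0, 2, 2 and 2 of 5.

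Gene starts were scored for the 32 members with a start in the RefSeq promoter table (GRCh38.p14), out of 15813 genes with one. A start counted as open or acetylated where an ATAC or K27ac region overlapped the 1 kb on either side of it. The other 12 members (COL1A1, COL1A2, COL2A1, COL3A1, COL5A2, COL6A1, COL6A5, COL8A1, COL9A3, COL14A1, COL20A1 and COL22A1) were scored at either gene end and are given apart. The sequences that the results turn on are the shared promoter of COL4A5 and COL4A6, which carried a HOXD13-HA region; the COL17A1 start, which carried another; the stretch between COL4A1 and COL4A2; and the COL5A1 promoter, in the gene that had the most regions gained with the hairpins. Each is printed from RefSeq 5′ to 3′ on the gene's own strand, ending at the base before the start, and capitals mark every match to 1 of 7 motifs searched on both strands of the 250 bases before each start: the posterior HOX motifs CAATAAA and TCGTAAA, AP-1 (TGANTCA), the E-box (CACGTG), the M-box (TCATGTG), the TATA box (TATAAA) and the GC box (GGGCGG).
COL4A6 (chrX:108439459-108439708, minus strand): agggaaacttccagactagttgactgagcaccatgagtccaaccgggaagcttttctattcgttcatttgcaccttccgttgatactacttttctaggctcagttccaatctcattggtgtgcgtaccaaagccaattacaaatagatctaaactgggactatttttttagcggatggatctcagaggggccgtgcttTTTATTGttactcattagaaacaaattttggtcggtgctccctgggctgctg
COL4A5 (chrX:108439588-108439837, plus strand): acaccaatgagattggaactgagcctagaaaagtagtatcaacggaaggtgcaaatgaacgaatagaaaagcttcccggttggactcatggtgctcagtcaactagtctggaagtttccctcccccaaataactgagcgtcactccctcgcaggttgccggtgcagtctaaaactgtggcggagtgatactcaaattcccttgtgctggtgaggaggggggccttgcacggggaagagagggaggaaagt
COL17A1 (chr10:104085881-104086130, minus strand): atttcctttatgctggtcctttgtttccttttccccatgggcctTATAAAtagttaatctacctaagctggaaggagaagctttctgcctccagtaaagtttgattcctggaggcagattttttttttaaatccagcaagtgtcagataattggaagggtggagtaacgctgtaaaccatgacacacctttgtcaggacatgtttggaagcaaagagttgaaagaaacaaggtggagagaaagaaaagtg
COL4A2 (chr13:110307158-110307283, plus strand, the bases between the COL4A1 and COL4A2 starts): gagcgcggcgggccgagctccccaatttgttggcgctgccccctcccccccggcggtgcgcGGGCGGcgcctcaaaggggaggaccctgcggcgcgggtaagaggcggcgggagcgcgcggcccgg
COL5A1 (chr9:134641553-134641802, plus strand): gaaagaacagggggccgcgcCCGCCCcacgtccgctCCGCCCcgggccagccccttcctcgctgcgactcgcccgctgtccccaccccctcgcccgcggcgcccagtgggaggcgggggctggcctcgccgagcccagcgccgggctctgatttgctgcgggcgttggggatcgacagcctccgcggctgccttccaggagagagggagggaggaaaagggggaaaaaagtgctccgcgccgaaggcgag

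The capitals in the COL4A6 stretch are CAATAAA read on the opposite strand (TTTATTG), beginning 52 bases before the start, and this heptamer lay inside the HOXD13-HA region. No motif was found in the COL4A5 stretch, which overlaps that of COL4A6. The capitals in COL17A1 are a TATAAA, 206 bases before the start, and those in COL4A2 and COL5A1 are GC boxes. The 32 genes have 44 start windows, since some have several starts. CAATAAA occurred in 2 (COL4A6 and COL28A1), against 2.69% of the 22156 windows of all genes. TATAAA occurred in 8 of the 44 windows (9.0% of all windows) and the GC box in 24 (53.7%). AP-1 was found in 1 window, COL10A1 (5.36%), the M-box in 1, COL24A1 (1.99%), and TCGTAAA (0.46%) and the E-box (7.37%) in none. The median GC content was 64.2% in the collagen windows and 62% in all windows. A match is a description of letters only, and it says nothing about binding.

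The 6 type IV genes were open at their starts in SKMEL-147 and A375-GFP and in neither 501mel nor SKMEL-5. Over all collagen starts, 22 of 32 were open in SKMEL-147 (74.7% of all genes) and 24 in A375-GFP (75.7%), but only 12 in 501mel (68.4%) and 9 in SKMEL-5 (61.9%). The collagen share was thus near the background in SKMEL-147 and A375-GFP and below it in 501mel and SKMEL-5. With the 4 lists shortened to equal length it was below the background in SKMEL-147 and A375-GFP too, with 9 of 32 (48.9% of all genes) and 8 of 32 (60.8%). Exactly 11 of the 32 were open in SKMEL-147 and A375-GFP alone, a pattern found in 4.23% of all genes: COL4A1 to COL4A6, the fibrillar genes COL5A1, COL5A3 and COL24A1, and the fibril-associated COL9A2 and COL12A1. Because the type IV pairs share their starts, the 11 genes lie at 8 loci. The dot chart of starts by line shows the split as a block of 12 filled and 12 empty circles in its top 6 lines.

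**Figure D1:**
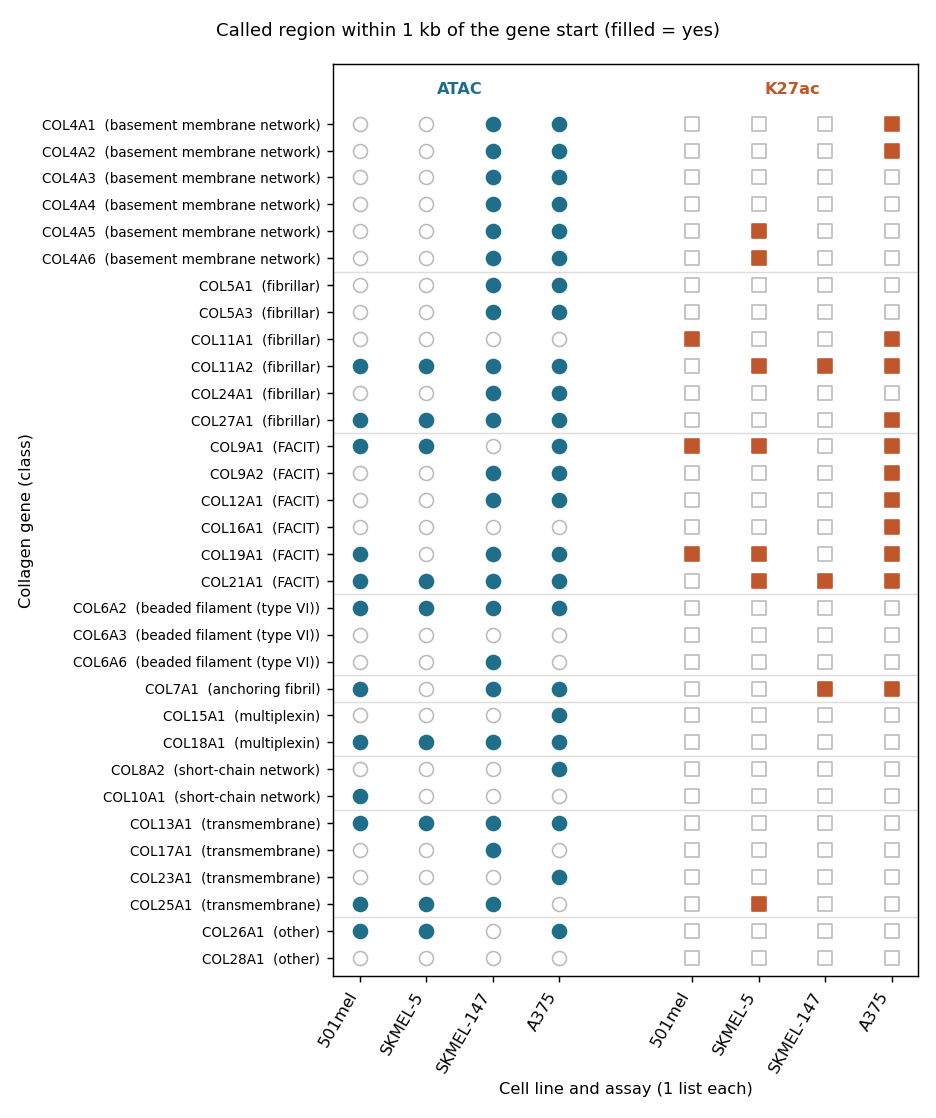
Presence of a called ATAC region (circles, left) or K27ac region (squares, right) within 1 kb of the start of the 32 collagen genes with a known start, by class (rows) and cell line (columns); filled symbols mark a region, and A375 stands for the A375-GFP lists. All 6 type IV genes have an ATAC region in SKMEL-147 and A375 and none in 501mel or SKMEL-5, and no gene has K27ac in all 4 lines.

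The type IV regions were of middling strength within their lists. One ATAC region spanned the COL4A1 and COL4A2 starts in each of the 2 lines, with a fold of 9.93 in SKMEL-147 (in the top 48.0% of the list) and 6.47 in A375-GFP (top 53.3%). At COL4A3 and COL4A4 the folds were 14.0 (top 33.7%) and 7.62 (top 43.9%), and at COL4A5 and COL4A6 they were 20.7 (top 15.6%) and 6.71 (top 51.1%). The lists of these 2 lines were also the longest. With the 4 ATAC lists shortened to the 56333 regions of highest fold, the pattern was left at 3 genes (COL9A2, COL4A3 and COL4A4; 1.29% of all genes). COL4A5 and COL4A6 were then open in SKMEL-147 alone and COL4A1 and COL4A2 in no line. Among regions with a −log10 q of at least 10 the pattern held 10 genes, all 6 type IV genes among them, and its share of all genes was 6.58%.

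Starts open in all 4 lines were fewer than in other genes: 6 of 32, against 58.1% of all genes. They were COL6A2, a type VI chain, COL18A1, the endostatin precursor, COL11A2 and COL27A1, both fibrillar, COL13A1, a transmembrane collagen, and COL21A1, a fibril-associated one. At COL21A1 this was the innermost of 3 starts, and the outermost start had no region in any list. No line had an ATAC region at the starts of COL16A1, COL11A1, COL6A3 or COL28A1. COL11A2 lies in the major histocompatibility region, where some of the deposited lists also hold regions on alternative contigs; its values are given with that limit.

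**Figure D2:**
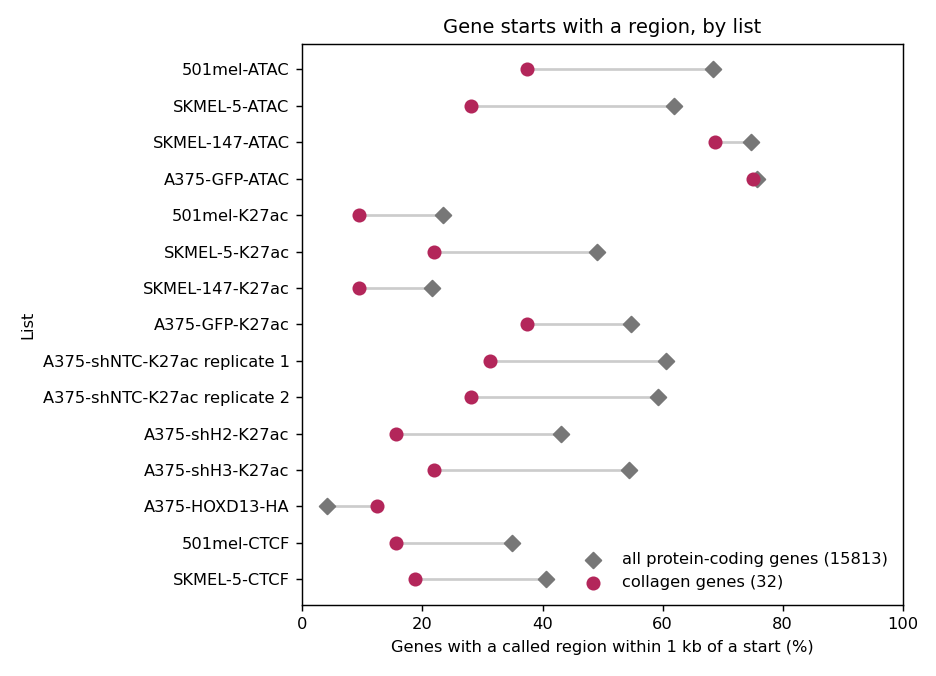
Share of gene starts with a called region within 1 kb, for the 32 collagen genes with a known start (red circles) and for all 15813 protein-coding genes with one (grey diamonds), in each of the 15 lists; the x axis is in percent. Collagen starts lie left of all genes in 14 lists, by little in SKMEL-147 and A375-GFP ATAC, and right of them in the HOXD13-HA list.

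K27ac at the start was rarer at collagen genes than at other genes in all 4 lines. It was called at 3 of 32 starts in 501mel (23.5% of all genes), 7 in SKMEL-5 (49.0%), 3 in SKMEL-147 (21.6%) and 12 in A375-GFP (54.7%). No collagen start was acetylated in all 4 lines (11.2% of all genes), and 17 of 32 were acetylated in none (37.5%). The other 15 were acetylated in 1 line (9 genes, 15.2% of all genes), 2 lines (COL7A1 and COL11A1, 19.6%) or 3 lines (COL9A1, COL11A2, COL19A1 and COL21A1, 16.5%). The 501mel and SKMEL-147 lists had K27ac at few starts of any gene, as the shares of all genes show. Acetylation in A375-GFP alone marked 6 starts (9.14%): COL4A1 and COL4A2, which share 1 region, COL9A2, COL12A1, COL16A1 and COL27A1. In SKMEL-5 alone it marked COL25A1, a transmembrane collagen, and the shared start of COL4A5 and COL4A6 (4.38%), where the fold was 3.06 and 96.8% of that list ranked as high or higher.

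The strongest K27ac at a collagen start was that of COL19A1, a fibril-associated collagen with a 346 kb gene. It had a region of 7724 bp and fold 38.4 in SKMEL-5 (top 1.95% of the list), 5029 bp and 13.7 in 501mel (top 1.64%), and 3981 bp and 23.7 in A375-GFP (top 0.539%). SKMEL-147 had none there. The shNTC libraries, also from A375, had only 3.08 and 4.21 at the same start, below the A375-GFP list. COL7A1, the anchoring fibril collagen, was acetylated at its start in SKMEL-147 (fold 10.0, top 5.53%) and A375-GFP (11.8, top 3.37%) and in neither of the other lines. COL21A1 was acetylated at the innermost of its 3 starts in SKMEL-5, SKMEL-147 and A375-GFP, with folds of 4.37, 7.53 and 3.39. COL9A1, a cartilage chain that pairs with COL9A2 and COL9A3, had 4.27 in 501mel, 6.99 in SKMEL-5 and 2.76 in A375-GFP. The COL11A1 start was acetylated in 501mel (3.90) and A375-GFP (5.94) with no ATAC region there in any line. In A375-GFP alone the folds were 12.8 at COL16A1, 13.0 at COL4A1 and COL4A2, 5.62 at COL9A2, 4.99 at COL27A1 and 3.10 at COL12A1.

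At either gene end, which could be scored for all 44 genes, ATAC regions were found for 14 in 501mel (67.6% of all genes), 12 in SKMEL-5 (59.1%), 32 in SKMEL-147 (74.8%) and 32 in A375-GFP (75.0%). K27ac was found for 7 (24.0%), 9 (46.5%), 3 (21.9%) and 16 (55.0%), and CTCF for 9 in 501mel (35.7%) and 12 in SKMEL-5 (42.4%). HOXD13-HA was found for 4 (5.22%), 1 of which, COL9A3, is among the 12 genes without a listed start. COL14A1, a fibril-associated collagen of skin and tendon, was open at an end in all 4 lines, as was COL5A2.

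Within 50 kb, nearly every collagen gene had an ATAC region. The counts were 44 of 44 in 501mel (97.5% of all genes), 43 in SKMEL-5 (95.7%), 44 in SKMEL-147 (99.0%) and 44 in A375-GFP (98.3%), and the gene without one in SKMEL-5 was COL3A1. K27ac regions lay near 28 genes in 501mel (67.0%), 38 in SKMEL-5 (81.2%), 34 in SKMEL-147 (72.0%) and 43 in A375-GFP (84.5%), where COL6A5 was the exception. With the lists as deposited these counts were near the shares of all genes or above them by a few genes, with windows that are longer than those of most genes. Among regions with a −log10 q of at least 10 the K27ac counts were 12 in 501mel (34.5% of all genes), 28 in SKMEL-5 (62.9%), 28 in SKMEL-147 (34.3%) and 33 in A375-GFP (68.6%), so that SKMEL-147 stood further above its background there. Counting a region only for its nearest gene, a rule for which no share of all genes was computed, left 21, 27, 26 and 37 members with K27ac in the 4 lines in the same order.

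The type I genes, which encode the main collagen of dermis, had no K27ac region in the gene body of COL1A1 in any of the 8 K27ac lists. All of its 4 regions in 501mel, 5 in SKMEL-5, 9 in SKMEL-147 and 30 in A375-GFP had midpoints outside the gene, in a window that other genes share. An ATAC region lay at the upper end of COL1A1 in all 4 lines, with folds of 8.21, 6.81, 11.7 and 10.8 in the same order. COL1A2 had no K27ac region in 501mel or SKMEL-5 and 4 regions each in SKMEL-147 and A375-GFP, none of them at a gene end. Its lower end was open in 501mel, SKMEL-147 and A375-GFP with folds of 6.71, 15.2 and 5.90.

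COL3A1, the partner of type I in elastic tissues, was nearly blank. It had 2, 0, 3 and 5 ATAC regions and 0, 2, 0 and 5 K27ac regions in 501mel, SKMEL-5, SKMEL-147 and A375-GFP, and no region of either kind at its ends. COL5A2, next to it on chromosome 2, had 3, 18 and 37 K27ac regions in its body in SKMEL-5, SKMEL-147 and A375-GFP and none in 501mel. Among the 11 fibrillar genes, COL27A1 had more in A375-GFP, 66. The upper end of COL5A2 was open in all 4 lines. The strongest ATAC region of COL5A2 ranked in the top 0.276% of the A375-GFP list with a fold of 18.8 and in the top 0.747% of the SKMEL-147 list with 31.9.

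COL5A1, whose chain joins that of COL5A2 in type V collagen, differed between lines in its number of ATAC regions. It had 7 in 501mel, 3 in SKMEL-5, 40 in SKMEL-147 and 22 in A375-GFP, from lists of 104442, 56333, 163102 and 118398 regions. With the lists shortened to equal length, the COL5A1 start was open in no line. K27ac was absent from its window in 501mel and SKMEL-5, and SKMEL-147 had 5 regions and A375-GFP 2. COL11A1, a fibrillar collagen of cartilage, held the 20th strongest ATAC region of the whole 501mel list, with a fold of 33.9, inside its gene body. It had 3, 2, 8 and 3 K27ac regions in 501mel, SKMEL-5, SKMEL-147 and A375-GFP.

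Around the paired genes COL4A1 and COL4A2, which encode the basement membrane chains found in nearly all tissues, A375-GFP had far more K27ac than the other lines. COL4A2 had 26 regions in 501mel, 3 in SKMEL-5, 11 in SKMEL-147 and 153 in A375-GFP. These regions covered 10.1%, 1.3%, 3.91% and 47.8% of its window, and the last value lay at percentile 99.5 of all genes in that list. COL4A1 had 0, 5, 6 and 98 regions in the same order, and 31.9% of its window was covered in A375-GFP (percentile 96.4). The 2 shNTC libraries of the same line covered 15.6% and 14.8% of the COL4A2 window and 11.6% and 10.8% of the COL4A1 window, less than the A375-GFP list. The whole shNTC lists covered 103 and 98.4 Mb, against 105 Mb, but they differed in make-up. They held 85977 and 80242 regions of median width 741 and 766 bp, and the A375-GFP list held 139985 of 434 bp. The K27ac lists of the other lines covered 46.9 to 52.3 Mb. In 501mel, COL4A1 was bare of K27ac while COL4A2 held 13 regions in its body and 13 past it.

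**Figure D3:**
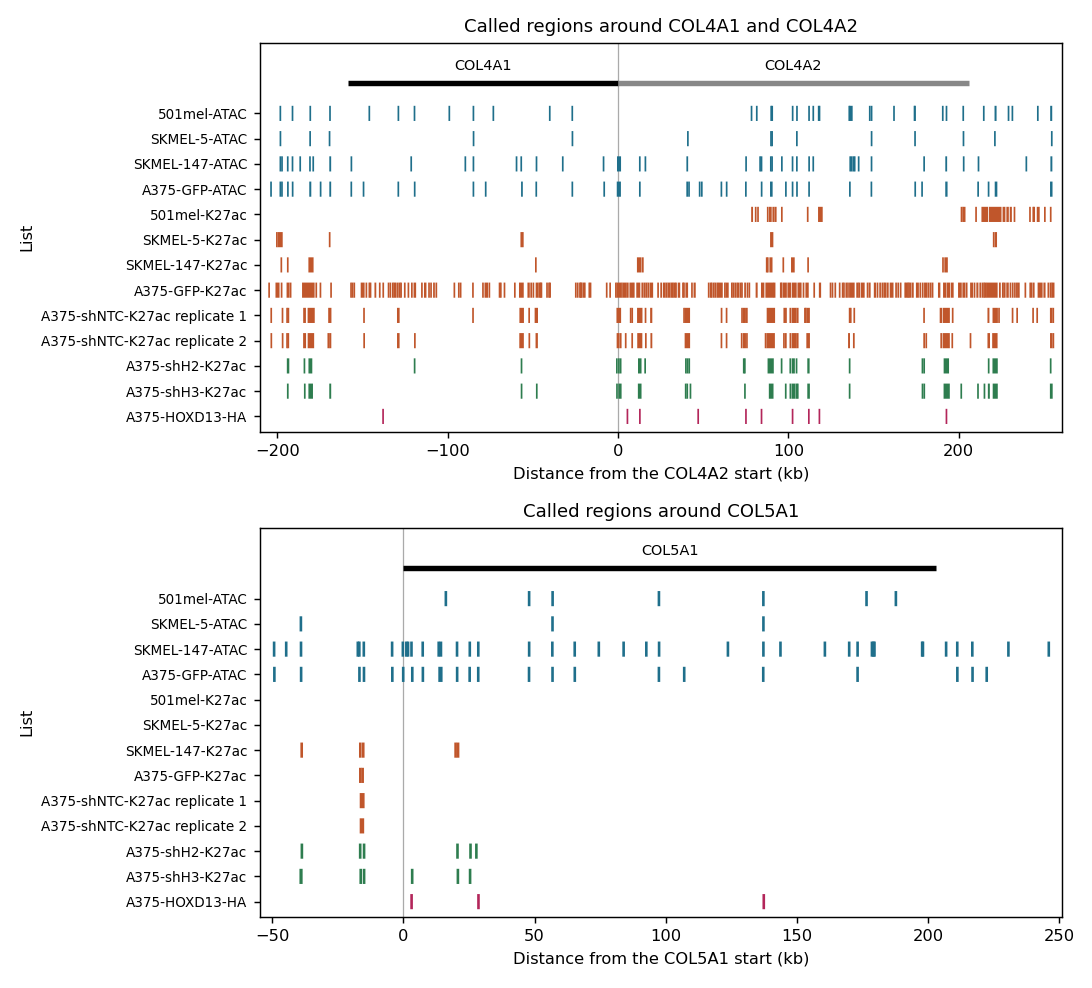
Called regions of 13 lists around COL4A1 and COL4A2 (top, distance in kb from the COL4A2 start) and COL5A1 (bottom, distance in kb from its start); each mark is 1 region, drawn at least 1 kb wide so that it can be seen, and black and grey bars are gene bodies. In the top panel the 501mel K27ac list is empty over COL4A1 and the A375-GFP list is dense over both genes; in the bottom panel the hairpin lists have 6 regions each where each shNTC list has 1.

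The 5 type VI genes differed in acetylation, but the A375-GFP list is also the longest K27ac list, with 139985 regions. By covered share their median percentile of all genes was 16.4 in 501mel, 18.9 in SKMEL-5, 13.9 in SKMEL-147 and 43.2 in A375-GFP. COL6A1 had 8 K27ac regions in A375-GFP and none in 501mel, SKMEL-5 or SKMEL-147. COL6A2 had 1 region in SKMEL-5, 6 in A375-GFP and none in the other two, although its start was open in all 4 lines with folds of 7.07, 5.88, 7.87 and 7.08 in 501mel, SKMEL-5, SKMEL-147 and A375-GFP. COL6A3 had 3 regions in SKMEL-5, 5 in SKMEL-147 and 7 in A375-GFP. COL6A6 had 2, 1, 3 and 5 regions in 501mel, SKMEL-5, SKMEL-147 and A375-GFP, none at its start, and COL6A5 had none in any K27ac list. Both shNTC libraries of A375 had K27ac at the COL6A2 start, with folds of 6.52 and 7.42, and at the lower end of COL6A1, with 5.96 and 5.88, where the A375-GFP list had none.

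COL18A1, the endostatin precursor, was likewise open at its start in all 4 lines and acetylated there in none. Its window held 2, 4, 3 and 11 K27ac regions in 501mel, SKMEL-5, SKMEL-147 and A375-GFP, and the strongest lay about 40 kb outside the gene in the last 3 lines. COL9A3, a fibril-associated collagen of cartilage, had 20, 11, 5 and 50 K27ac regions, which covered 13.7% of the window in 501mel (percentile 96.9) and 37.9% in A375-GFP (percentile 98.1). Its lower end carried a region of 6718 bp and fold 25.2 in A375-GFP, in the top 0.439% of the list.

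In SKMEL-147 some collagen genes had many K27ac regions. COL13A1, a transmembrane collagen, had 36 K27ac regions in SKMEL-147, all in the gene body, against 1 in 501mel, 0 in SKMEL-5 and 8 in A375-GFP. COL8A1, a short-chain collagen of blood vessels and cornea, had 32 in SKMEL-147, 22 of them in the gene body, against 0, 5 and 14. The covered shares in SKMEL-147, 10.6% and 12.9%, stood at percentiles 96.1 and 97.3 of all genes. The COL13A1 start had no K27ac region in any of the 4 lines. At the lower end of COL8A1 the SKMEL-147 region had a fold of 3.53, in the top 78.8% of the list. COL7A1 reached percentile 98.1 in SKMEL-147 and 99.1 in A375-GFP, but only 7 of its 15 and 7 of its 44 regions had their midpoint in its short gene body.

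CTCF regions were found near 41 members in 501mel (88.9% of all genes) and 43 in SKMEL-5 (93.5%). At the start they were found for 5 of 32 (34.9%) and 6 (40.5%). COL24A1 had the 74th strongest CTCF region of the 501mel list, with a fold of 51.2, and that of SKMEL-5 had a fold of 39.0. The lower end of COL1A2 and the upper end of COL1A1 carried a CTCF region in both lines.

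HOXD13-HA regions lay near 36 of the 44 collagen genes (60.2% of all genes), and 123 separate regions were counted. Over the joined windows this came to 1.14 regions per 100 kb, against 1.09 around all protein-coding genes, so the density was close to that of other genes while the share of genes was higher. No region lay near COL1A1, COL6A5, COL7A1, COL8A2, COL11A2, COL16A1, COL18A1 or COL20A1. The strongest was in the body of COL26A1 (chr7:101488639-101489104), with a fold of 14.8 that ranked 91st in the list (top 0.312%), in open chromatin of A375-GFP.

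The next highest folds per gene were 11.3 at COL28A1, 10.5 at COL8A1, 8.71 at COL23A1, 8.17 at COL21A1, 8.08 at COL25A1, 7.45 at COL4A2 and 6.60 at COL15A1. COL23A1 and COL25A1 are transmembrane collagens, and COL15A1 is the multiplexin closest to COL18A1. By number, COL21A1 had 13 regions, COL8A1 12 and COL4A2 9. COL8A1 had the highest density of the 44 genes, 4.6 per 100 kb, and stood at percentile 99.4 of all genes by covered share, followed by COL17A1 with 7 regions and 4.53 per 100 kb (percentile 96.7). All 7 COL17A1 regions had their midpoints outside the gene body, the nearest 160 bp from its start. The regions at COL4A2 reached far into the gene, the strongest 118 kb from the start and overlapping an A375-GFP K27ac region. The fibrillar genes COL1A2, COL3A1 and COL5A2 had 1 region each, with folds of 4.85, 4.75 and 4.04.

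**Figure D4:**
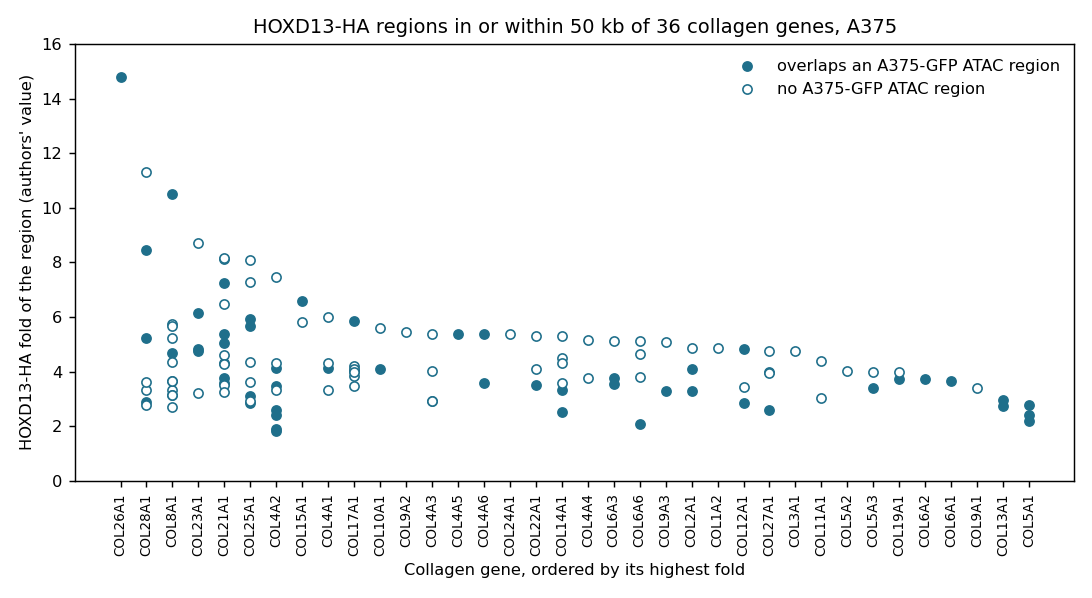
Authors' fold (y axis) of each HOXD13-HA region in or within 50 kb of the 36 collagen genes that have one (x axis, ordered by highest fold), with filled circles for regions overlapping an A375-GFP ATAC region; a region near 2 genes is drawn at both. COL26A1 has a single region, of fold 14.8, and COL21A1 and COL8A1 have the most points, 13 and 12.

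At gene starts HOXD13-HA was rare: 4 of 32 collagen genes, against 4.05% of all genes, at 3 loci. The region at chrX:108439446-108439842, fold 5.39 (top 18.9% of the list), spanned the stretch between COL4A5 and COL4A6 printed above. It overlapped the A375-GFP ATAC region there, and no K27ac region lay at that start in A375-GFP, shNTC, shH2 or shH3. At COL17A1, a hemidesmosome collagen of the epidermis, the region had a fold of 4.11 (top 44.1%) and no ATAC or K27ac region at the start in A375-GFP. The region at COL21A1 had a fold of 5.37 (top 19.9%) at the innermost of its 3 starts, which was both open and acetylated. Among regions with a −log10 q of at least 10 only 1 of these genes, COL21A1 (−log10 q 14.1), was left (0.911% of all genes).

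Of the 123 HOXD13-HA regions near collagen genes, 55 (44.7%, 95% Wilson interval 36.2 to 53.5) overlapped open chromatin of A375-GFP, against 34.8% of such regions near all genes. K27ac was overlapped by 33 (26.8%, 19.8 to 35.3), against 25.2%, and 60 (48.8%) overlapped neither, against 56.3%. The intervals cover counting error only and treat regions as independent. The 123 regions come from 1 library and cluster by gene, with 13 at COL21A1, 12 at COL8A1 and 9 at COL4A2. Whether the shares differ from those near all genes was not tested.

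With the hairpins, 106 of the 299 K27ac regions near collagen genes that both shNTC lists shared were absent from both hairpin lists. This loss of 35.5% (30.2 to 41.0) held the value near all protein-coding genes, 37.9%, within its interval. The hairpin lists are shorter as a whole: shH2 and shH3 covered 36.8 and 49.2 Mb, and the shNTC lists 103 and 98.4 Mb. The median covered share of a collagen window was 1.26% and 1.49% with shH2 and shH3, and 2.98% and 2.38% in the shNTC libraries. Over all genes the medians were 1.27% and 2.03% with the hairpins and 4.5% and 4.25% in the controls. With all 4 lists shortened to 43634 regions, 18.6% of the collagen regions were lost and 16.4% near all genes. Without the second shNTC library it was 47.1% (49.7% near all genes). K27ac lay within 50 kb of 43 collagen genes in each shNTC library (88.9% and 88.7% of all genes), 36 with shH2 (79.9%) and 37 with shH3 (85.2%).

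At least 1 region was lost at 35 of 44 collagen genes (70.7% of all genes). COL7A1 lost 12 of 18 regions, COL4A2 11 of 29, COL4A1 7 of 18, COL8A2 7 of 15, COL27A1 6 of 11, COL1A1 and COL9A3 6 of 14 each, and COL5A2 6 of 21. None of the shNTC regions around COL7A1 or COL1A1 had its midpoint in the gene body, so these losses lay in windows shared with other genes. Within gene bodies alone, 54 of 146 collagen regions were lost, 37.0% (40.4% in the bodies of all genes). COL4A4, COL4A5, COL4A6 and COL11A2 lost every region, but they had only 1 or 2 each, the X-linked COL4A5 and COL4A6 sharing theirs (3.76% of all genes lost all). None of the 12 COL21A1 regions was absent from both hairpin lists, and the hairpin lists shared 9 regions there.

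The covered share of the window was lower with both hairpins than in both controls at several genes whose windows held much K27ac. The median of all genes was lower too: 4.5% and 4.25% with shNTC, 1.27% with shH2 and 2.03% with shH3. At COL9A3 the covered share was 30.1% and 27.2% in the shNTC libraries, 8.80% with shH2 and 10.1% with shH3. At COL7A1 the 4 values were 25.6%, 23.1%, 10.7% and 10.3%, at percentiles 94.5, 93.9, 96.9 and 93.7 of all genes. At COL4A2 the covered shares were 15.6%, 14.8%, 7.59% and 8.92%, and at COL1A1 20.0%, 18.7%, 5.33% and 9.36%. Among collagen windows, that of COL8A2 had the highest fold in each of these 4 lists, 81.4 and 73.7 with shNTC, 36.8 with shH2 and 49.1 with shH3, from regions more than 31 kb outside this short-chain collagen gene.

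Acetylated starts were also fewer. K27ac lay at 10 and 9 of 32 collagen starts in the shNTC libraries (60.5% and 59.2% of all genes), 5 with shH2 (43.0%) and 7 with shH3 (54.4%). Both shNTC lists had K27ac at 9 of 32 collagen starts (58.2% of all genes), and 5 of them had it in both hairpin lists (42.1%): COL4A1 and COL4A2, COL7A1, COL9A2 and COL21A1. Neither hairpin list had it at COL6A2, COL11A2 or COL27A1 (4.90% of all genes), and COL19A1 had it with shH3 alone (11.2%). At the shared COL4A1 and COL4A2 start the region of highest fold was 2738 and 1766 bp wide with shNTC, and 232 and 546 bp with shH2 and shH3. With shH2 another region lay 0.154 to 0.867 kb past the COL4A2 start, so 232 bp is not the whole acetylated stretch there. No collagen start was acetylated in both hairpin lists and neither control (0.0632%).

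**Figure D5:**
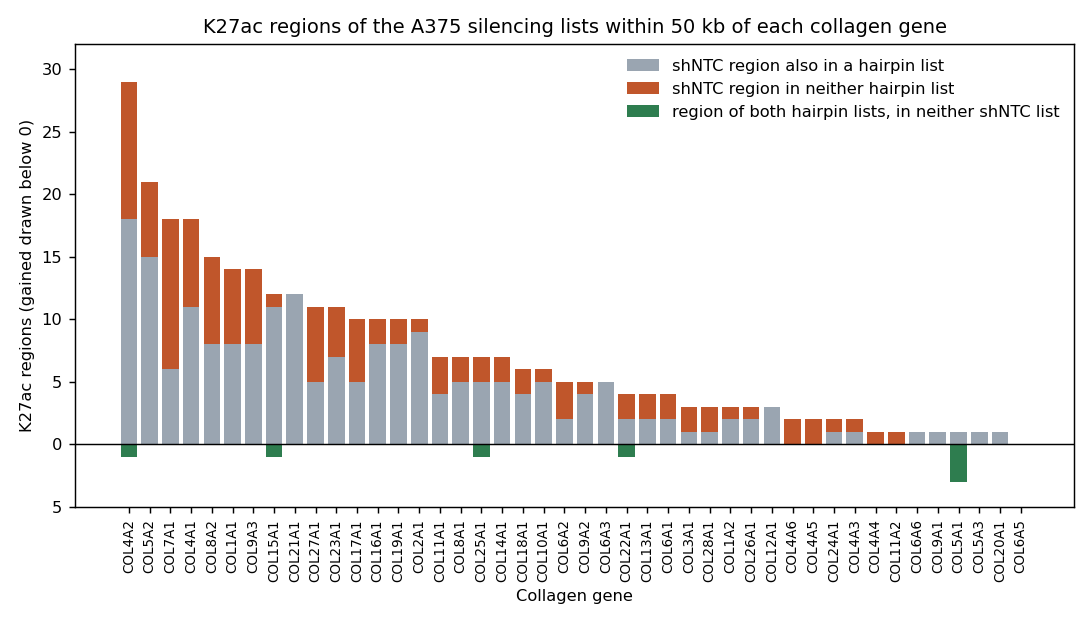
Number of K27ac regions in the A375 silencing lists within 50 kb of each collagen gene (x axis, ordered by number), counted as regions (y axis): grey, shared by both shNTC lists and present in a hairpin list; orange, shared by both shNTC lists and absent from both hairpin lists; green, drawn below 0, present in both hairpin lists and absent from both shNTC lists. COL4A2 has the tallest column, 29 regions with 11 lost, COL21A1 has 12 with none lost, and COL5A1 has the deepest green bar, 3 regions.

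Of the shared shNTC regions near collagen genes, 31 overlapped a HOXD13-HA region, and 2 of these were lost (6.45%, 1.79 to 20.7), against 104 of 268 others (38.8%, 33.2 to 44.8). Near all genes the shares were 19.5% and 40.0%, and the first lies inside the collagen interval. Regions that overlapped A375-GFP open chromatin were lost in 47 of 224 cases (21.0%), and those that did not in 59 of 75 (78.7%), beside 20.8% and 81.4% near all genes.

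Gains were few, and COL5A1 had 3 of the 7. Both hairpin lists shared 153 regions near collagen genes, of which 7 were in neither shNTC list (4.58%, 2.23 to 9.14), against 1.46% near all genes. The interval treats regions as independent, and the difference was not tested. The 7 gained regions lay at 5 of 44 genes (2.99% of all genes): 3 at COL5A1 and 1 each at COL4A2, COL15A1, COL22A1 and COL25A1. All 7 overlapped open chromatin of A375-GFP and none a HOXD13-HA region. With the lists shortened to equal length 11 of 144 were gained (7.64%), and the share near all genes rose to 6.08%, with gained regions at 6 collagen genes (11.6% of all genes).

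COL5A1 had 1 K27ac region in each shNTC library and 6 in each hairpin list. The shNTC regions lay about 16 kb before the gene, with folds of 5.27 and 5.74, and the same place was acetylated in both hairpin lists and in A375-GFP. The gained regions lay 39 kb before the start (fold 6.76 with shH2 and 8.12 with shH3), 21 kb into the gene (4.53 and 8.28) and 25 kb into it (4.86 and 3.82). SKMEL-147 had K27ac regions at the first of these places, fold 7.12, and at the second, fold 3.38. The count of 3 gained regions at COL5A1 fell to 1 among regions with a −log10 q of at least 10. It stayed at 3 with the lists shortened to equal length and with the stricter overlap rule. Leaving out either shNTC library also gave 3, but that change cannot lower the count. Shortening the shNTC lists likewise makes absence from them easier. The start of COL5A1 was open in A375-GFP and had no K27ac region in any list.

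The other genes of the collagen pathway were read from lists drawn up apart from the members. Of 25 genes that modify, fold, secrete or trim collagen chains, 6 had K27ac at a gene end in 501mel (24.0% of all genes), 11 in SKMEL-5 (46.5%), 4 in SKMEL-147 (21.9%) and 19 in A375-GFP (55.0%). The same count was 19 and 18 with shNTC (59.0% and 57.6%), 14 with shH2 (40.8%) and 14 with shH3 (51.8%). All 25 were open at an end in A375-GFP (75.0%). Of 5 crosslinking enzymes, which join finished chains, 2, 3, 4 and 5 were acetylated at an end in the 4 lines in the same order as above. Gained regions were found at 2 of the 25 processing genes (2.99% of all genes), PLOD2 and PPIB, a lysyl hydroxylase and a prolyl isomerase that act on collagen chains, and at none of the crosslinking enzymes, the 10 collagen receptors or the 7 collagen-degrading proteases. At least 1 region was lost at 23 of the 25, all 5 crosslinking enzymes, 8 of the receptors and 6 of the proteases, beside 70.7% of all genes.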

How the data were processed

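The deposited files are lists of called regions (narrowPeak, MACS2) with matching summits, 1 pair per library, which the authors made with Trim Galore, Bowtie2, SAMtools, MACS2 and deepTools on hg38, per the submitters' processing notes; versions and settings are not given in the sources used here. The deposited lists have no header; by their layout and values each region carries the authors' score, their fold enrichment over background (a ratio) and their −log10 p and −log10 q; the lowest −log10 q in a list was 1.3. Each list holds 1 library, by its region names, and the depth is unknown. 6 of the 21 samples were not analysed here.

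Genes came from RefSeq (GRCh38.p14, the same build family as hg38), and starts from its promoter table, of which the 250 bases before each start were searched for motifs. A region belonged to a gene when its midpoint lay in the body or within 50 kb, and to a start when it overlapped 1 kb on either side. Regions sharing at least 1 bp were counted as shared. A lost region was in both shNTC lists and neither hairpin list, a gained one the converse. Intervals are 95% Wilson intervals. Overlap functions were tested on simulated lists. Python 3.11.15, NumPy 2.4.6 and pandas 2.3.3 were used.

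Members and gene lists were chosen with earlier results of these data known. Values per list are given for a fixed set of 13 genes, the 8 genes of highest HOXD13-HA fold and the 8 with most lost regions. They are also given for those with a gained region (at most 8) and those whose start K27ac differs between lines (at most 12, by rank). COL8A2's folds, COL13A1, COL24A1 and the start patterns were singled out after their values were seen. So were the count of gained regions at COL5A1 and the number of collagen genes with a gained region. Alternatives were the window, the start distance, a −log10 q of at least 10, nearest-gene assignment, equal list lengths, stricter overlap, single hairpins and leaving out either shNTC library.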

Additional observations from a re-analysis of the deposited data

How the results depend on the processing

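Of 140 values recomputed under an alternative, 122 stayed within 1.5 times the main count or inside its interval, and 18 moved. Requiring a −log10 q of at least 10 left K27ac near 12 collagen genes in 501mel (34.5% of all genes) and HOXD13-HA near 14 genes (26.7%) and at 1 start (0.911%). It left ATAC at 3 starts in SKMEL-5 (34.4%), and K27ac at 1 start each in 501mel (7.01%) and SKMEL-5 (29.5%). With lists of equal length, ATAC lay at 9 starts in SKMEL-147 (48.9%) and 8 in A375-GFP (60.8%). Then 3 starts were open in these 2 lines alone (1.29%), a pattern chosen, with its alternatives, after seeing the data. A distance of 2 kb put K27ac at 6 starts in SKMEL-147 (25.8%). The lost share was 18.6% with lists of equal length (16.4% near all genes), 49.8% against shH2 alone (53.0%) and 41.8% against shH3 alone (43.1%). Leaving out 1 shNTC library in turn gave a lost share of 40.2% to 47.1% (46.8% to 49.7% near all genes). The gained share was then 4.58% to 5.88% (2.06% to 2.58% near all genes). At COL5A1, 1 gained region had a −log10 q of at least 10. Collagen genes with a gained region numbered 2 at that limit (1.34% of all genes), 10 with shH2 alone (9.39%) and 15 with shH3 alone (21.1%). The other windows (10 kb, 100 kb, gene body) moved no count or share beyond these limits. No paired analysis was possible because only the shNTC group has more than 1 library, and no test was made. What depth limits cannot be stated, since the reads behind each list are unknown.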
